A study of Mus musculus with 48 samples.

Results

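The genes described here are 28 members of the cholesterol pathway: the enzymes from acetyl units to cholesterol, the proteins that regulate them, and 3 genes of sterol traffic, storage and turnover. They were taken from a list of symbols and matched to Ensembl identifiers. All 28 were found among the 47069 gene rows of the count table, each under 1 identifier, and all 28 passed the filter on low counts in every comparison. The study sequenced RNA of 3 brain regions, the cortex, the striatum and the cerebellum. It compared wild-type mice with mice that lack 1 copy of the 7qF3 band, the mouse counterpart of human 16p11.2 (genotype 16p11.2 Deletion). All animals were on the mixed C57BL/6N:129Sv background, and none had a treatment in the labels. Each of the 16 animals gave all 3 tissues, and each of the 6 groups held 8 animals, 4 males and 4 females. No age is given: that field of the labels holds a date, which differs between males and females and cannot be told apart from sex.

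The brain makes nearly all of its own cholesterol, because lipoproteins of the blood do not cross the blood-brain barrier. Synthesis runs through mevalonate, the isoprenoids and squalene to lanosterol, and then through a series of demethylations, reductions and an isomerisation to cholesterol. Sterol levels feed back on synthesis: when membrane sterol is low, SCAP escorts the SREBP transcription factors to the Golgi, where they are cleaved and released to the nucleus, and INSIG proteins hold them back when sterol is plentiful. Oligodendrocytes need much sterol for myelin, astrocytes supply neurons, and neurons clear the surplus as a hydroxylated sterol made by CYP46A1.

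Promoters are printed for 6 of the members called between wild-type regions, so that the regulatory sequence stands beside the values. Srebf1, which was also called, is not among them, and Fdft1 and Fdps had no matched window. Each is the 250 bases before the RefSeq start in GRCm38.p6, 5′ to 3′ on the gene's own strand. Capitals mark 3 motifs on either strand: TCACNCCAC, the core of a sterol regulatory element, CCAAT, and the GC box GGGCGG. N stands for any base, and no marked match overlaps another.
Hmgcs1: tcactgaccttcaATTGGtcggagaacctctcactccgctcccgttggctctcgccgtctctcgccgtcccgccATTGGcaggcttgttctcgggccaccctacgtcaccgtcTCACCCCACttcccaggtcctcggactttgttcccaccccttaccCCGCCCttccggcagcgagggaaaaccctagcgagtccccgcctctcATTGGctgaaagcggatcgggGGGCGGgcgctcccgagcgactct
Msmo1: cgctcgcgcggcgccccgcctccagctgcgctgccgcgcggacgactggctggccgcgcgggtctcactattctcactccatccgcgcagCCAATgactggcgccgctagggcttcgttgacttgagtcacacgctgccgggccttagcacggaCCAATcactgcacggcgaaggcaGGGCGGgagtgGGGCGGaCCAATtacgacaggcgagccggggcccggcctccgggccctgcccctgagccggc
Srebf2: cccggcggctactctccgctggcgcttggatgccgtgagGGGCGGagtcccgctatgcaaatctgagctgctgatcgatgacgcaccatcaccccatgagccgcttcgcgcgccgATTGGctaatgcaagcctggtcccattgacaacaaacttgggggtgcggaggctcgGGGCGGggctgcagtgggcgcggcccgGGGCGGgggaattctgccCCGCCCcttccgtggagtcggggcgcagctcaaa
Cyp46a1: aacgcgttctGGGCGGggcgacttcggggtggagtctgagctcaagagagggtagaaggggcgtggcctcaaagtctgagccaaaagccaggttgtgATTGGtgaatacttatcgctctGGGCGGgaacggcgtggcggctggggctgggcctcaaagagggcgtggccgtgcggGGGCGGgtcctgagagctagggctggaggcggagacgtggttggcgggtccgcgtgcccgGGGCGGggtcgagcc
Lbr: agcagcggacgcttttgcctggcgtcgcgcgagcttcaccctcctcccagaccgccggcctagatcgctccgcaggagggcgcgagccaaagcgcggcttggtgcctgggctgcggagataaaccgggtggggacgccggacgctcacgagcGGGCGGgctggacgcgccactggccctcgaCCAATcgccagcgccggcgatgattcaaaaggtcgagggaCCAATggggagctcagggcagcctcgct
Ebp: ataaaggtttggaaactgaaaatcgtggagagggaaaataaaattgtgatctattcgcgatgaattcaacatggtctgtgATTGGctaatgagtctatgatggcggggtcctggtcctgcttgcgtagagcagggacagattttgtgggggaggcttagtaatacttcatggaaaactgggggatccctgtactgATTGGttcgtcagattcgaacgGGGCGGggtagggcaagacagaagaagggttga

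These windows are chr13:119690101-119690350 on the plus strand for Hmgcs1, chr8:64733579-64733828 on the minus strand for Msmo1, chr15:82147019-82147268 on the plus strand for Srebf2, chr12:108334066-108334315 on the plus strand for Cyp46a1, chr1:181842402-181842651 on the minus strand for Lbr and chrX:8193513-8193762 on the minus strand for Ebp. The genes themselves lie at chr13:119690379-119708260 (Hmgcs1), chr8:64718139-64733792 (Msmo1), chr15:82147181-82205379 (Srebf2), chr12:108334381-108362234 (Cyp46a1), chr1:181815335-181843046 (Lbr) and chrX:8185329-8193512 (Ebp) in GENCODE's annotation of GRCm38. By these positions the Lbr window lies wholly, and the Msmo1 and Srebf2 windows partly, inside the GENCODE gene, past its annotated start. RefSeq windows were matched for 24 of the 28 members, and Sqle, Fdft1, Fdps and Stard4 were not matched. Over all 32851 promoter windows of the same length, the sterol element core was found in 1.05%, CCAAT in 33.8% and the GC box in 32.7%. Among the 24 matched members, some of which have more than 1 window, the core was found only in Hmgcs1, CCAAT in 22 and the GC box in 21. Counted by window, as for all promoters, CCAAT was in 71.9% and the GC box in 75% of the members' 32 windows. The core in Hmgcs1 begins 137 bases before the start, between CCAAT matches that begin 176 and 45 bases before it. A match describes the letters only, and the absence of one says nothing of whether a factor binds.

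Library totals lay between 29244745 and 60751792 gene counts (median 32232112). Genes of the deleted interval were lower in every deletion library, whose mean log2 level ran from -1.49 to -0.68 relative to wild type, than in every wild-type library, from -0.43 to 0.35. Cerebellar markers had a mean log2 CPM (gene counts scaled to a common library size) of 5.77 to 8.62 in cerebellum and at most 0.51 elsewhere. Cortex and striatum were less apart: striatal markers ran from 4.002 to 8.25 in cortex and from 4.50 to 9.36 in striatum, and in 11 of the 16 cortex libraries they lay above the cortical markers. The striatum library of deletion animal D810 had more of the thalamic (6.05) than of the striatal markers (5.27). Of the wild-type striatum libraries, W813 had cortical (4.77) and choroid markers (4.83) above the striatal ones (4.50), and W816 had choroid markers of 6.93. The cerebellum library of deletion animal D809 had the lowest cerebellar markers, 5.77, and the highest oligodendrocyte markers, 8.80. Choroid markers ran from 0.58 to 7.27 in wild-type and from 0.86 to 6.22 in deletion cerebellum. In such bulk tissue, fewer cells of a type and less RNA per cell cannot be told apart.

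Levels are given as CPM after scaling for library composition, and per kilobase of transcript where genes are compared with each other. In wild-type cortex the 28 genes spanned from 1.43 CPM per kilobase for Idi1 to 163 for Cyp46a1. Cyp46a1, the neuronal hydroxylase that turns cholesterol into a form that leaves the brain, was the highest per length in cortex and striatum (95.2 CPM per kilobase) and ranked 3 in cerebellum (29.9). Hmgcs1, which makes the precursor of mevalonate and is the most abundant of the enzymes per length in cortex and striatum, had 58.7, 55.0 and 35.7 CPM per kilobase in wild-type cortex, striatum and cerebellum. Pmvk, the phosphomevalonate kinase, had 54.2, 52.1 and 49.7 and was the highest of the 28 per length in cerebellum.

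In the steps from isoprenoids to squalene, Fdft1, the squalene synthase, had 36.2, 31.8 and 18.9 CPM per kilobase, and Sqle, the squalene epoxidase that makes the next, rate-controlling step, had 24.9, 24.99 and 18.2. Among the sterol enzymes, Msmo1, the methyl sterol oxidase, led in every region, with 49.0, 43.7 and 29.6. Tm7sf2, a sterol reductase, followed in cortex with 21.4, and Ebp, the sterol isomerase, in cerebellum with 24.7. Srebf2, which encodes the SREBP most tied to cholesterol genes, had 39.7 and 40.4 in cortex and striatum, above Scap with 25.9 and 26.7. In cerebellum Scap had 23.4 and Insig1, the sterol-induced anchor, 22.7. Stard4, a sterol carrier of the cytosol, had 6.14, 6.84 and 8.65, and Soat1, which esterifies cholesterol for storage, 3.97, 4.23 and 2.91. Neighbours in this order often differed by less than their SDs, as Msmo1 and Pmvk did in cortex (49.0 ± 3.02 and 54.2 ± 13.7 CPM per kilobase, SD, n = 8).

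**Figure D1:**
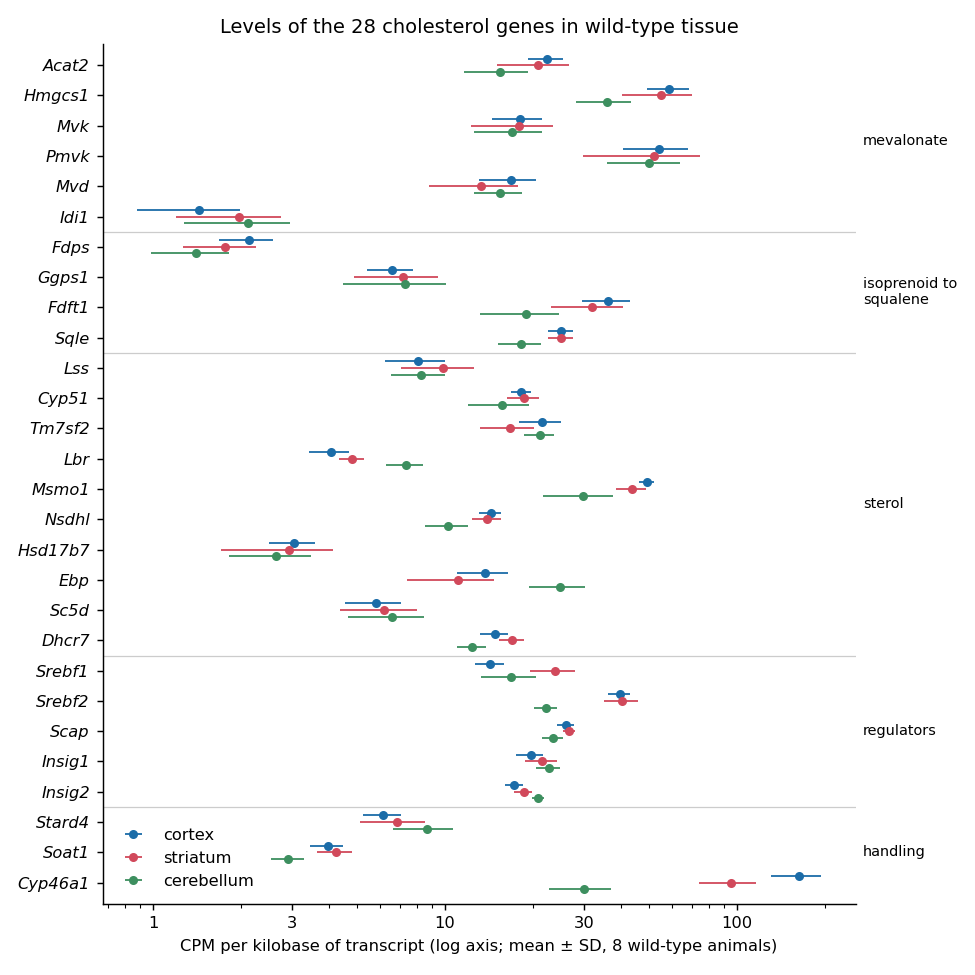
CPM per kilobase of transcript, on a log axis, for the 28 genes grouped by role, as the mean and SD of 8 wild-type animals in cortex (blue), striatum (red) and cerebellum (green). Cyp46a1 spans 163, 95.2 and 29.9 across the 3 regions, and Fdps and Idi1 lie near the bottom in all 3.

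Some counts are less certain. Stretches of at least 200 bases with at least 95% identity to another gene were found outside the locus for 5 members: Acat2, Fdft1, Fdps, Ggps1 and Idi1. Fdps, the farnesyl diphosphate synthase, had 4018 counts in all 48 libraries and Idi1, the isopentenyl diphosphate isomerase, 10186, against 106726 for Sqle. Both have processed pseudogenes, and reads that match several places may not have been counted. Acat2 is 97.7% identical over 1477 bases to Acat3 beside it. It is also 98.7% identical over 445 bases to Tcp1, which had 393782 counts against 73852 for Acat2. Overlaps with a neighbour's exons were found for several members, among them Fdft1 with Ctsb, Tm7sf2 with Vps51, Cyp51 with Akap9 and Srebf1 with Rai1, and no source used here says whether the counting used strand.

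The main question of the design is what loss of 1 copy of 7qF3 does to expression in each region. None of the 28 genes passed the test in cortex, striatum or cerebellum (edgeR's quasi-likelihood test, adjusted p from 0.965 to 0.99996), where 0.13%, 0.128% and 0.138% of all genes tested were called. DESeq2 called 0 in each tissue as well. At an unadjusted p under 0.05 there were 2 members in cortex, 1 in striatum and 0 in cerebellum, against 2.03%, 3.32% and 2.08% of all genes. All 3 were higher in deletion, as were 0.776% of all genes in cortex and 1.53% in striatum at that threshold. DESeq2 gave 4, 1 and 0. The deletion and wild-type values of all 28 members overlapped in every tissue.

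Point estimates for the members lay mostly above 0. In cortex 20 of 28 were positive with a median log2 fold change of 0.08, in striatum 21 with 0.16 and in cerebellum 22 with 0.09, while the medians over all genes tested were 0.00, -0.01 and -0.00. The median was 0.02 in cortex of females alone, 0.07 in striatum with marker levels as covariates, and 0.04 in cerebellum without the 2 libraries of lowest cerebellar markers. Striatal markers lay above cortical ones in 7 of 8 deletion and 4 of 8 wild-type cortex libraries. Mitochondrial genes took 3.06% to 4.16% of counts in deletion and 2.21% to 3.60% in wild-type cerebellum, 3.30% to 6.19% and 1.99% to 4.73% in striatum, and 2.92% to 6.32% and 2.71% to 4.71% in cortex. Their part in the estimates was not tested. The estimates of different members are not independent, and the same animals stand behind the 3 tissues. Most sizes are small: 95% intervals stayed within 1.5-fold either way for 26 members in cortex, 24 in striatum and 21 in cerebellum. The highest bound was a log2 fold change of 1.26, for Idi1 in cortex, and 27 members there stayed within 2-fold.

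The mevalonate enzymes were positive in 5 of 6 in cortex, 6 of 6 in striatum and 5 of 6 in cerebellum, with medians of 0.08, 0.22 and 0.14. The 4 genes from isoprenoids to squalene were positive in 3 in each tissue, and the 10 sterol enzymes in 8, 7 and 8. The 5 regulators were positive in 2, 2 and 3, with medians of -0.00, -0.02 and 0.01. Srebf1, which drives fatty acid genes, had estimates of -0.08, -0.12 and -0.08, and Scap of -0.00, -0.06 and -0.04. The value for Srebf1 in striatum was -0.12 ± 0.10 (SE; unadjusted p = 0.243, edgeR), with 1 of 8 deletion values above the mean of wild type.

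**Figure D2:**
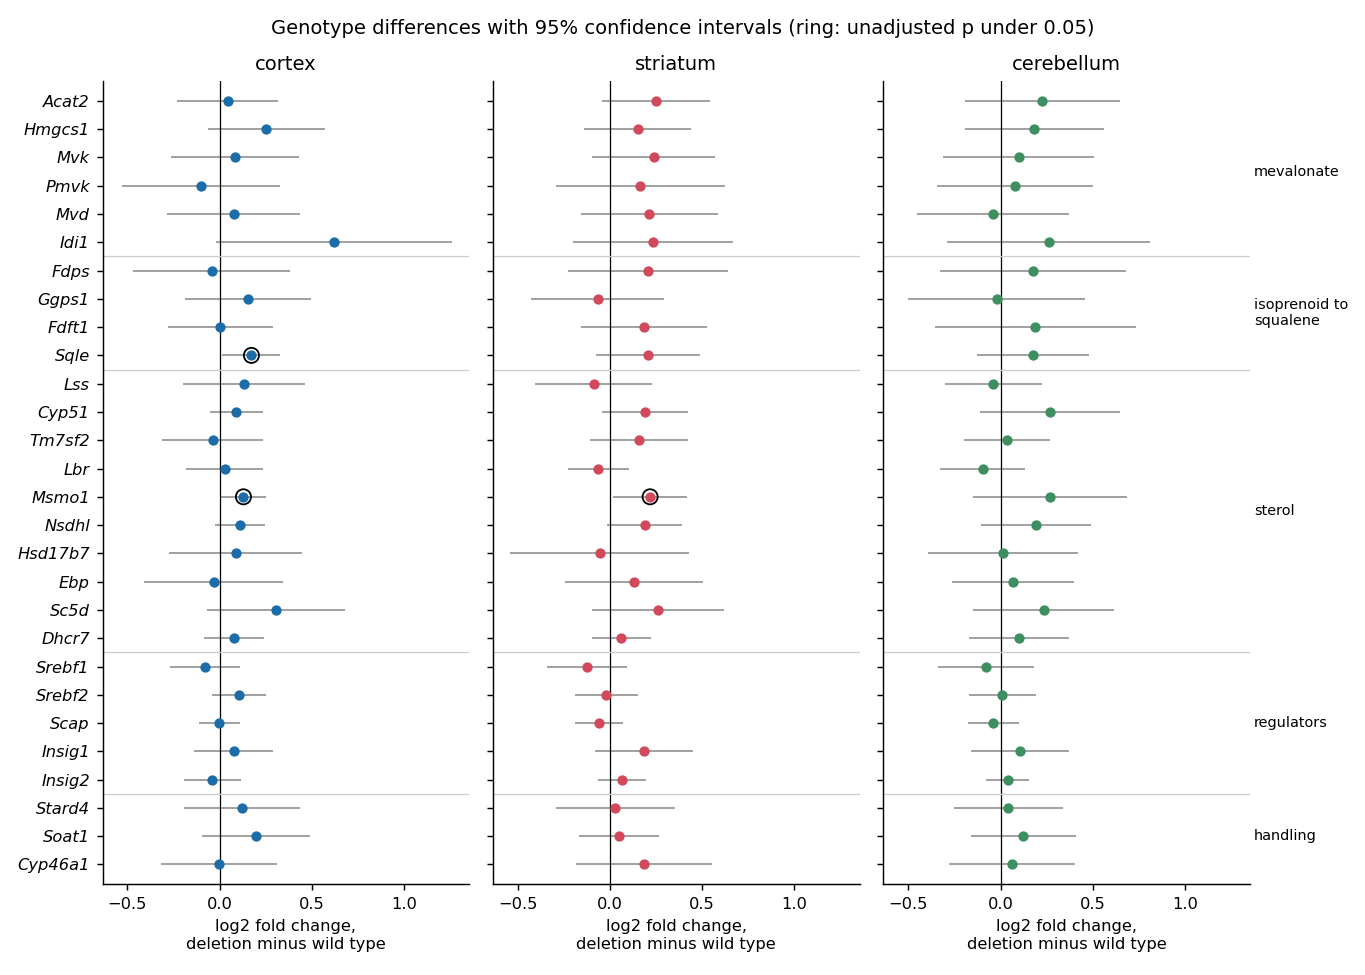
Log2 fold change, deletion minus wild type, with its 95% confidence interval for each of the 28 genes in cortex, striatum and cerebellum. Rings mark unadjusted p under 0.05, which only Sqle and Msmo1 in cortex and Msmo1 in striatum reach, and most points lie a little to the right of 0.

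In cortex, Sqle had the smallest p. It ran from 66.1 to 87.7 CPM with a median of 78.0 in deletion and from 56.8 to 75.5 with a median of 70.7 in wild type. Means were 77.7 ± 8.67 and 68.8 ± 6.90 (SD, n = 8). The log2 fold change, with its SE, was 0.17 ± 0.07 (unadjusted p = 0.0334, adjusted p = 0.965, edgeR). The ranges overlapped, and 6 of 8 deletion values exceeded the mean of wild type. Msmo1 ran from 97.0 to 124.7 with a median of 108.6 against 90.8 to 112.3 with a median of 99.6, and 7 of 8 deletion values exceeded the mean of wild type. Its log2 fold change was 0.13 ± 0.06 (unadjusted p = 0.0402, adjusted p = 0.965, edgeR).

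Idi1, a gene of few counts, ran from 2.70 to 11.8 CPM in deletion cortex, median 6.62, and from 2.50 to 6.71 in wild type, median 3.83. The estimate of 0.62 ± 0.30 had an unadjusted p of 0.0565 by edgeR. The spread within groups was large, with a deletion SD of 3.21 against a mean of 6.71. Sc5d, a sterol desaturase late in the pathway, ran from 23.5 to 50.7, median 29.6, against 21.6 to 37.1, median 25.2 (0.31 ± 0.18, unadjusted p = 0.0994, edgeR). Nsdhl, which removes the methyl groups of lanosterol with Msmo1, ran from 30.7 to 36.2, median 34.0, against 28.5 to 36.7, median 30.6 (0.11 ± 0.06, unadjusted p = 0.104, edgeR). Adjusted p was 0.965 for all 3, and all 3 pairs of ranges overlapped.

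In striatum, Msmo1 had the smallest p. It ran from 86.3 to 126.7 CPM, median 101.8, in deletion and from 69.5 to 105.3, median 90.4, in wild type, with 7 of 8 deletion values above the mean of wild type. The log2 fold change was 0.22 ± 0.09 (unadjusted p = 0.035, adjusted p = 0.99996, edgeR). The ranges of the groups overlapped. Nsdhl ran from 27.4 to 40.8, median 35.1, against 26.6 to 37.1, median 29.7 (0.19 ± 0.10, unadjusted p = 0.0674, edgeR). Acat2, the thiolase of the opening step, ran from 43.7 to 78.8, median 48.8, against 34.3 to 72.5, median 44.2 (0.25 ± 0.14, unadjusted p = 0.0905, edgeR).

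Cyp51, the lanosterol demethylase, ran from 65.0 to 105.2 CPM in deletion striatum, median 81.6, against 64.1 to 88.7, median 70.4 (0.19 ± 0.11, unadjusted p = 0.104, edgeR). Sqle ran from 44.1 to 97.6, median 85.4, against 58.5 to 78.0, median 68.8 (0.21 ± 0.13, unadjusted p = 0.138, edgeR). The lowest and the highest Sqle values of the striatum were both in deletion libraries. Without the 1 library of high thalamic markers, Msmo1 had 0.21 (unadjusted p = 0.0692, edgeR) and the median of the 28 members was 0.16, with 22 positive. No member reached an unadjusted p under 0.05 there, nor without the 2 libraries of highest choroid markers, with marker levels as covariates or with all 48 libraries in 1 fit. With the length and GC scores in the model Msmo1 had 0.10 (unadjusted p = 0.275, edgeR). In that fit 3 members reached an unadjusted p under 0.05 by edgeR and 23 estimates were positive, against 1 and 21 in the main fit. The share of all genes at that p with the scores is not given here.

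In cerebellum, the members of smallest p were Cyp51, Nsdhl, Msmo1, Sc5d and Sqle, and none passed an unadjusted p of 0.05 with edgeR. Cyp51 ran from 55.3 to 125.2 CPM, median 70.4, in deletion and from 42.9 to 86.2, median 57.0, in wild type (0.27 ± 0.18, unadjusted p = 0.15, edgeR). Nsdhl ran from 20.5 to 38.5, median 24.3, against 18.1 to 28.1, median 21.1 (0.19 ± 0.14, unadjusted p = 0.187, edgeR). The highest deletion value of both was that of animal D809, the library with the lowest cerebellar and highest oligodendrocyte markers.

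Msmo1 ran from 57.5 to 132.5 CPM, median 64.3, in deletion cerebellum against 34.6 to 90.3, median 56.7 (0.27 ± 0.20, unadjusted p = 0.191, edgeR). Sc5d ran from 25.4 to 56.6, median 33.8, against 23.4 to 50.8, median 28.9 (0.23 ± 0.18, unadjusted p = 0.211, edgeR). Sqle ran from 46.3 to 88.6, median 52.6, against 38.1 to 65.8, median 49.4 (0.18 ± 0.14, unadjusted p = 0.238, edgeR). These ranges overlapped as well. The summed CPM of the 20 enzymes ran from 755 to 1292 in deletion and from 662 to 943 in wild-type cerebellum, and without D809 the highest deletion sum was 914. Without the 2 libraries of lowest cerebellar markers the median log2 fold change of the 28 members was 0.04 in place of 0.09.

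**Figure D3:**
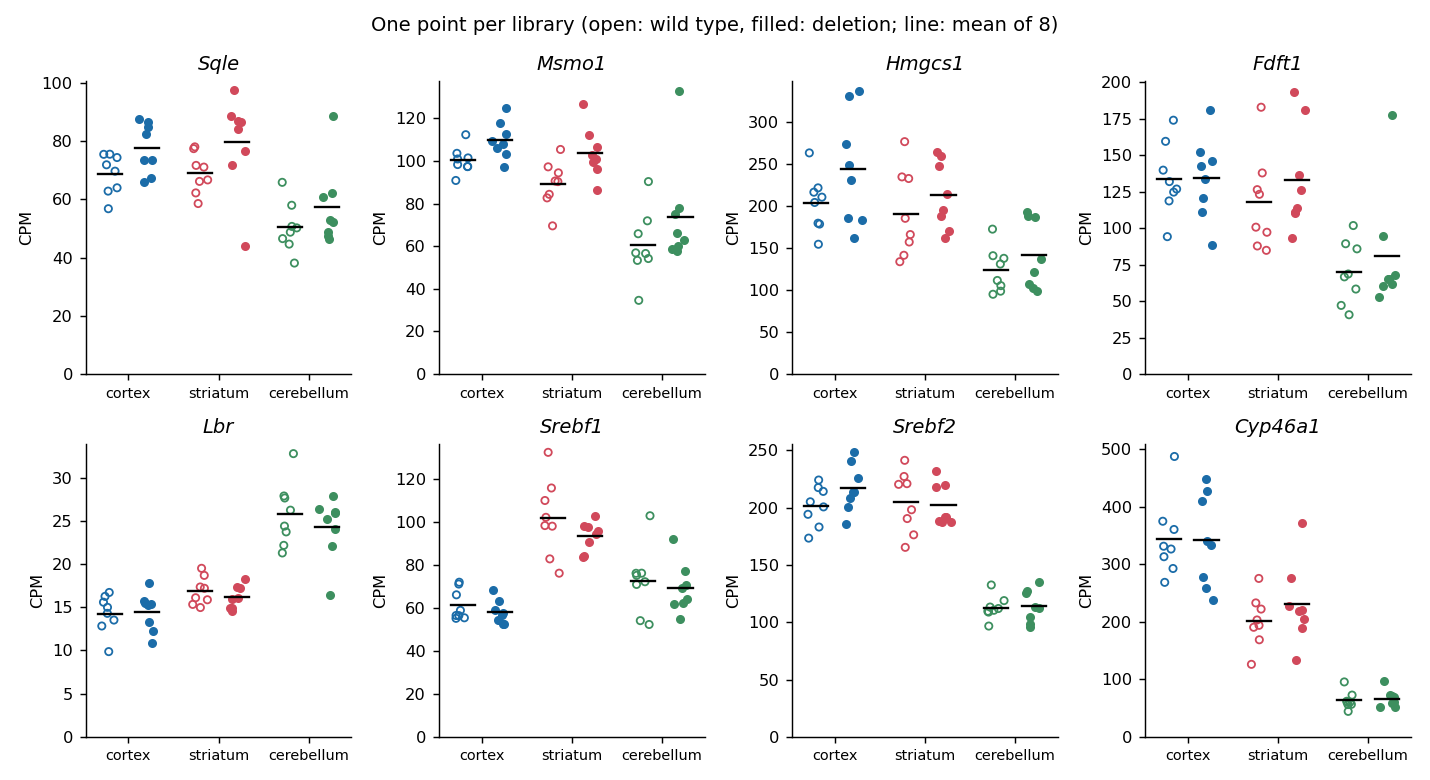
CPM of 8 genes in every library, with wild type as open and deletion as filled points and the mean of 8 as a line, by region. Sqle and Msmo1 overlap between genotypes, Srebf2 and Cyp46a1 are low in every cerebellum library, and the highest Fdft1 and Msmo1 points of cerebellum are deletion animal D809.

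No difference in the deletion effect between tissues or between the sexes was called for any member (0 of 28 by edgeR and by DESeq2 in each of the 6 tests). A p above the threshold does not show that the effects are alike. None reached an unadjusted p under 0.05 in edgeR, against 1.52%, 1.1% and 0.558% of all genes by sex in cortex, striatum and cerebellum. By tissue the shares were 1.86% for striatum against cortex, 1.27% for cerebellum against cortex and 1.57% for cerebellum against striatum. The share of all genes that edgeR called in these tests was 0%. With the animal as a block, 2 members reached an unadjusted p under 0.05 by edgeR for striatum against cortex and 1 for cerebellum against striatum. None was called. The shares of all genes above are from the fit without the block, and those with it are not given here. The smallest p between the sexes was that of Insig1 in cerebellum, with a difference in log2 effect of 0.43 ± 0.23 (unadjusted p = 0.0837, adjusted p = 0.9999, edgeR). Between tissues it was Insig2, 0.11 ± 0.08 for striatum against cortex (unadjusted p = 0.145, adjusted p = 0.9998, edgeR). In males alone 25, 20 and 16 of 28 estimates were above 0 in cortex, striatum and cerebellum, and in females alone 19, 22 and 24.

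Regions of the wild-type brain differed more. Calls between regions needed an adjusted p under 0.05 by edgeR and a difference of at least 1.5-fold. Between striatum and cortex 2 of 28 members were called, 1 higher and 1 lower, against 12.3% of all genes (7.21% higher, 5.05% lower). Cerebellum against cortex called 8 of 28, 2 higher and 6 lower, against 35.2% (16% higher, 19.2% lower). Cerebellum against striatum called 6 of 28, 2 higher and 4 lower, against 34.1% (13.8% higher, 20.3% lower). In all 3 comparisons the members' share lies below that over all genes. With the animal as a block, Idi1 was also called higher in cerebellum than in cortex (log2 fold change 0.60) and Msmo1 lower than in striatum (-0.59).

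Srebf1 was higher in striatum than in cortex. It ran from 76.2 to 132.5 CPM with a median of 100.3 in striatum and from 55.2 to 72.0 with a median of 57.7 in cortex. No wild-type striatum library was as low as a cortex library. The log2 fold change was 0.73 ± 0.13 (SE), 1.66-fold, with an adjusted p of 0.000546 by edgeR, and in deletion animals it was 0.67 ± 0.10 (adjusted p = 2.79e-05). Cyp46a1 was lower in striatum, from 126.1 to 275.6 with a median of 198.6 against 268.7 to 487.8 with a median of 329.2. The log2 fold change was -0.78 ± 0.16 (adjusted p = 0.00158, edgeR), the ranges overlapped slightly, and in deletion animals it was -0.59 ± 0.18 (adjusted p = 0.0225). The other 26 members were not called. Among them Tm7sf2 passed the test with a log2 fold change of -0.37, short of 1.5-fold. Striatal markers overlapped between the 2 regions, and their part in these values was not tested.

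In cerebellum, Cyp46a1 was far lower than in cortex, from 44.3 to 95.5 CPM with a median of 60.1. The mean of 63.4 ± 15.2 (SD, n = 8) against 345 ± 67.2 in cortex was a log2 fold change of -2.44 ± 0.17, 5.42-fold (adjusted p = 7.20e-11, edgeR). Against striatum it was -1.66 ± 0.17 (adjusted p = 2.24e-08, edgeR). The highest cerebellum library stayed below the lowest library of the other regions. Neuronal markers ran from 9.15 to 9.43 mean log2 CPM in wild-type cerebellum, from 9.38 to 9.80 in cortex and from 8.68 to 9.33 in striatum, and their part in the Cyp46a1 difference was not tested.

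Srebf2 was lower in cerebellum than in both other regions. It ran from 96.6 to 132.5 CPM in cerebellum, median 111.2, from 173.4 to 224.1 in cortex, median 202.8, and from 165.3 to 241.2 in striatum, median 209.2. No cerebellum library reached either of the other regions. The log2 fold change was -0.84 ± 0.08 against cortex (adjusted p = 9.91e-09, edgeR) and -0.86 ± 0.08 against striatum (adjusted p = 8.82e-09, edgeR). In deletion animals the values were -0.91 ± 0.08 and -0.80 ± 0.08.

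Fdft1, Hmgcs1, Msmo1 and Fdps were called lower in cerebellum than in cortex. Fdft1 ran from 40.7 to 101.9 CPM, median 67.7, against 94.3 to 174.1, median 129.5, in cortex (-0.93 ± 0.19, adjusted p = 0.000286, edgeR). The ranges overlapped slightly. Against striatum, where it ran from 84.9 to 183.0, it was -0.73 ± 0.19 (adjusted p = 0.00272, edgeR). Hmgcs1 ran from 94.8 to 172.2, median 121.0, in cerebellum against 154.2 to 262.7, median 207.0, in cortex (-0.72 ± 0.15, adjusted p = 0.000424, edgeR). Against striatum it was -0.62 ± 0.15 (adjusted p = 0.00181, edgeR), and in deletion animals -0.55 (adjusted p = 0.0107), short of 1.5-fold. Msmo1 ran from 34.6 to 90.3 against 90.8 to 112.3 in cortex, with no overlap (-0.73 ± 0.14, adjusted p = 9.90e-05, edgeR). Fdps, a gene of few counts, stood at -0.60 ± 0.21 (adjusted p = 0.019, edgeR), and neither it nor Msmo1 was called in deletion animals, where the log2 fold changes were -0.35 (adjusted p = 0.248) and -0.56 (adjusted p = 0.00254, short of 1.5-fold).

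Lbr and Ebp went the other way. Lbr, a sterol reductase of the inner nuclear membrane that also binds chromatin, ran from 21.3 to 32.8 CPM in cerebellum, median 25.3, against 9.86 to 16.7 in cortex and 15.0 to 19.5 in striatum. Its cerebellum libraries all lay above those of the other 2 regions. The log2 fold change was 0.85 ± 0.10 against cortex (adjusted p = 1.28e-07, edgeR) and 0.61 ± 0.10 against striatum (adjusted p = 1.43e-05, edgeR). Ebp ran from 28.1 to 59.0, median 41.5, against 17.1 to 29.2, median 23.9, in cortex (0.85 ± 0.19, adjusted p = 0.000557, edgeR). Against striatum, where it ran from 13.8 to 31.2, it was 1.16 ± 0.19 (adjusted p = 1.81e-05, edgeR), and both pairs of ranges overlapped at their edges.

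**Figure D4:**
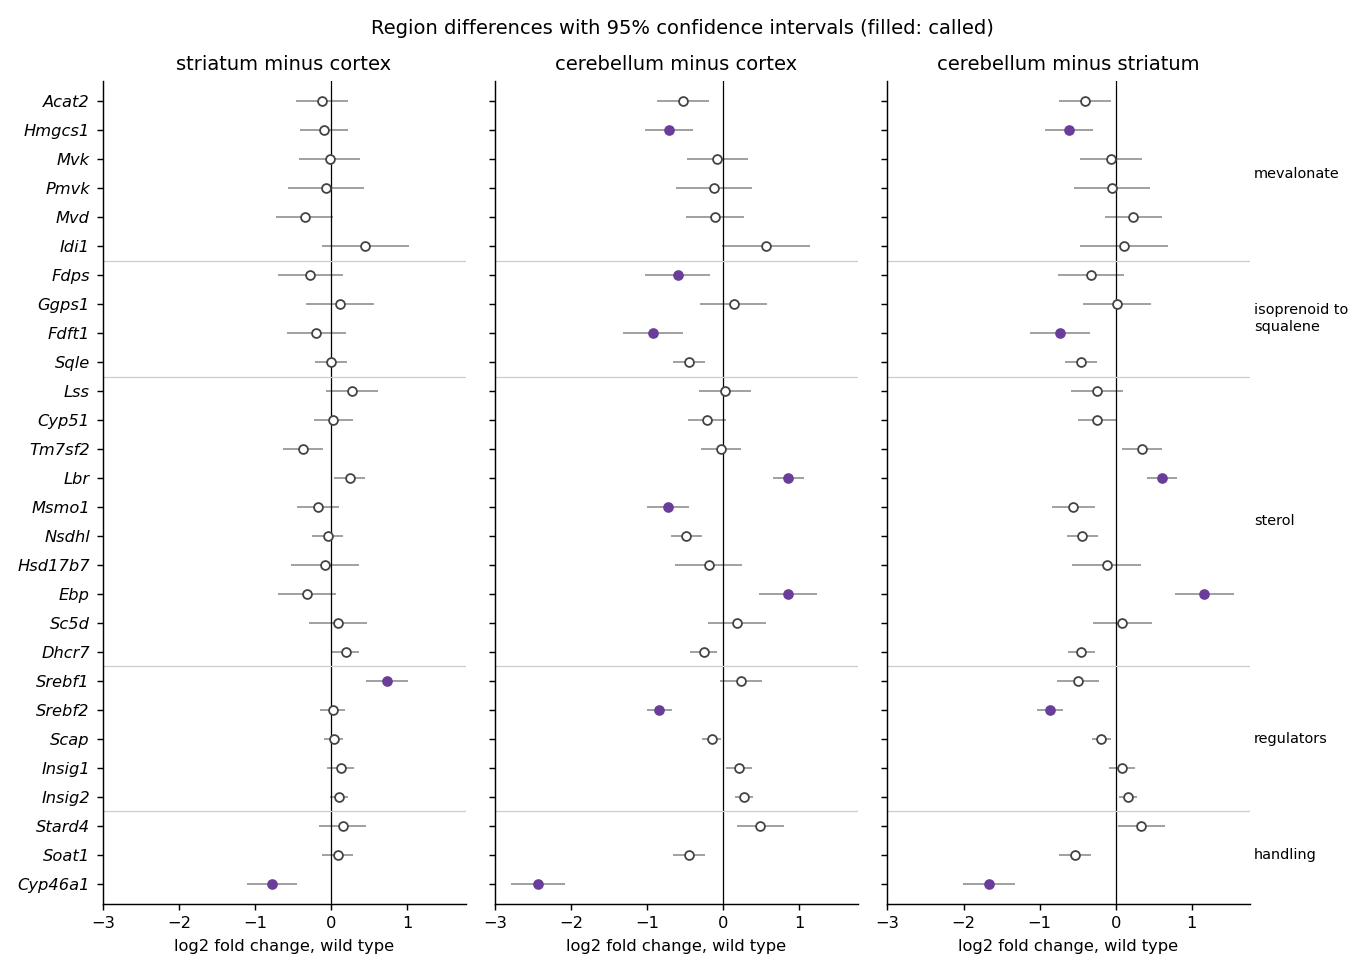
Log2 fold change between regions in wild-type animals with its 95% confidence interval for each of the 28 genes, with called genes filled. Cyp46a1 lies at -0.78, -2.44 and -1.66, Srebf2 at -0.84 and -0.86 in cerebellum, and Lbr and Ebp are the 2 called rises in cerebellum.

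The summed CPM of the 20 enzymes ran from 927 to 1091 in wild-type cortex, from 854 to 1118 in striatum and from 662 to 943 in cerebellum. Against cortex 9 more members passed the test in cerebellum without reaching 1.5-fold: Acat2, Sqle, Nsdhl, Dhcr7, Scap and Soat1 were lower, with log2 fold changes from -0.53 to -0.15, and Insig1, Insig2 and Stard4 higher, from 0.20 to 0.49. The share of all genes that passed the test alone is not given here, so these 9 members are not set apart from other genes. The median over the 28 members was -0.13, and 0.04 over all genes tested. Oligodendrocyte markers ran from 6.39 to 8.61 mean log2 CPM in wild-type cerebellum, from 5.71 to 7.92 in cortex and from 7.20 to 8.17 in striatum, and none of its genes was at 0 in all libraries of a group. Their part in the enzyme levels was not tested. In deletion animals, 2 of the 2 wild-type calls were shared for striatum against cortex, 6 of 8 for cerebellum against cortex and 5 of 6 for cerebellum against striatum. The share of all genes called in deletion animals was 13%, 34.5% and 31.8%.

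Lists of the neighbouring pathways gave the wider setting. Between cerebellum and cortex, where 16% of all genes were called higher and 19.2% lower, 2 of 13 SREBP-processing and cofactor genes were higher and 4 lower. Nfyc, a subunit of the CCAAT-binding factor NF-Y, had a log2 fold change of 1.014 ± 0.095 (76.9 against 37.8 CPM, adjusted p = 7.20e-09, edgeR). Pgrmc1, a sterol-binding membrane protein, fell by 0.82 ± 0.10 (173.1 against 304.7 CPM, adjusted p = 3.15e-07, edgeR). Fbxw7, a ubiquitin ligase subunit that marks nuclear SREBP for decay, was lower in striatum than in cortex (-1.27 ± 0.17, adjusted p = 4.15e-05, edgeR), the only call of that list there. Of 16 fatty acid genes, 3 were higher and none lower in striatum than in cortex, against 7.21% and 5.05% of all genes, and their median log2 fold change was 0.35 against 0.02 over all genes. Acacb, which makes malonyl-CoA at mitochondria, had 0.85 ± 0.17 (adjusted p = 0.00118, edgeR), and Fads2, a fatty acid desaturase, 0.63 ± 0.13 (adjusted p = 0.00147, edgeR).

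The counts of the next 4 lists, for cerebellum against cortex, stand beside 16% of all genes called higher and 19.2% lower. Of the 11 export and LXR genes, 4 were higher and none lower. Abca7, a lipid transporter, had a log2 fold change of 1.66 ± 0.12 (116.3 against 36.6 CPM, adjusted p = 2.12e-10, edgeR), and Nr1h3, the oxysterol receptor LXR alpha, 2.02 ± 0.22 (17.2 against 4.16 CPM, adjusted p = 5.02e-08, edgeR). Among 12 uptake and transport genes 2 were higher and 1 lower. The lower one was Scarb1, the HDL receptor (-1.23 ± 0.12, adjusted p = 1.44e-08, edgeR), and Gramd1b, which moves sterol between membranes, was higher (0.71 ± 0.16, adjusted p = 0.000566, edgeR). Of the 6 oxysterol and bile acid genes tested, 4 were higher and 2 lower. Cyp27a1, a sterol hydroxylase, had 1.99 ± 0.22 (28.2 against 7.11 CPM, adjusted p = 8.28e-08, edgeR) and Lcat, which esterifies cholesterol on lipoproteins, 1.71 ± 0.19 (86.0 against 26.2 CPM, adjusted p = 9.48e-08, edgeR). Cyp7b1, an oxysterol hydroxylase, was lower, -0.86 ± 0.22 (adjusted p = 0.00205, edgeR). Among 14 genes that use isoprenoids, 4 were higher and none lower. Icmt, which methylates prenylated proteins, had 2.50 ± 0.12 (483.0 against 84.5 CPM, adjusted p = 7.83e-14, edgeR), and Fntb, the farnesyltransferase subunit, 0.67 ± 0.08 (adjusted p = 2.24e-07, edgeR). Between cerebellum and striatum, where 13.8% of all genes were higher and 20.3% lower, 2 of 16 fatty acid genes were lower and none higher: Fasn, the fatty acid synthase (-0.70 ± 0.08, adjusted p = 2.22e-07, edgeR), and Fads2 (-0.94 ± 0.13, adjusted p = 2.53e-06, edgeR). The SREBP-processing list had 1 higher and 1 lower there, the export list 3 and 1, the uptake list 1 and 2, the oxysterol list 4 and 1, and the isoprenoid list 2 and 0. Between striatum and cortex, with 7.21% of all genes higher and 5.05% lower, the uptake list had 1 higher, the oxysterol list 1 and 1, and the export and isoprenoid lists none.

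Between genotypes, the 6 lists had 13, 16, 11, 12, 5 or 6, and 14 genes tested, in the order above with the oxysterol list as the fifth. None was called in any tissue with edgeR, against 0.13%, 0.128% and 0.138% of all genes in cortex, striatum and cerebellum. At an unadjusted p under 0.05 there were 0, 0 and 1, against 2.03%, 3.32% and 2.08%. The 1 gene was Nr1h3 in cerebellum, 12.5 ± 3.18 CPM in deletion and 17.2 ± 5.47 in wild type (SD, n = 8; log2 fold change -0.44 ± 0.18, unadjusted p = 0.0268, adjusted p = 0.9997, edgeR).

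Female and male animals were compared with the genotype held in the model; date and sex cannot be told apart here. No member was called in any tissue by edgeR, where 0.0356%, 0.134% and 0.042% of all genes were called in cortex, striatum and cerebellum. In striatum 10 of 28 members had an unadjusted p under 0.05 by edgeR, 5 higher and 5 lower in females. This stands against 32.9% of all genes (16.4% higher, 16.6% lower), a share close to that of the members. The smallest adjusted p of a member was 0.0829 by edgeR. DESeq2 called 5 members (Acat2, Mvk, Idi1, Ggps1 and Hsd17b7) and 14.9% of all genes. In cortex 3 members (Cyp51 and Mvd lower, Lbr higher) reached an unadjusted p under 0.05 against 2.67% of all genes, and in cerebellum 1 (Srebf1 higher) against 5.88%; DESeq2 gave 6 and 1, and called none.

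Of the 10 in striatum, Acat2 ran from 34.3 to 52.3 CPM in females, median 43.3, and from 44.2 to 78.8 in males, median 54.0. Its log2 fold change was -0.51 ± 0.14 (unadjusted p = 0.0019, adjusted p = 0.0829, edgeR). Mvk, the mevalonate kinase, ran from 21.4 to 32.04, median 26.4, in females and from 24.96 to 52.8, median 36.3, in males (-0.54 ± 0.16, unadjusted p = 0.00368, adjusted p = 0.0874, edgeR). Both pairs of ranges overlapped. Hsd17b7, a sterol ketone reductase, ran from 10.02 to 23.1, median 16.3, against 6.15 to 15.5, median 8.07 (0.71 ± 0.23, unadjusted p = 0.00718, adjusted p = 0.0899, edgeR). Idi1 ran from 3.64 to 11.8, median 8.19, against 2.93 to 7.03, median 5.20 (0.67 ± 0.21, unadjusted p = 0.00504, adjusted p = 0.0884, edgeR).

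By direction, these 10 genes, picked by p, differed in base composition and, with overlap, in transcript length. The 5 genes higher in females (Hsd17b7, Idi1, Ggps1, Stard4 and Hmgcs1) had transcripts of 3027 to 5097 bases and 40.1% to 43.9% GC. The 5 that were lower (Mvk, Pmvk, Acat2, Mvd and Fdft1) had 1194 to 3698 bases and 49.6% to 59.6% GC. A score per library, which measures how far its long genes stand above its short ones, had a median of 0.40 in female and -0.31 in male striatum libraries, from -0.49 to 0.76 and from -0.85 to 0.28. The GC score had medians of -0.33 and 0.20. With both scores in the model, none of the 28 members had an unadjusted p under 0.05 and 0 were called by edgeR. Over all genes the share called was 0.0407% with the scores and 0.134% without them. Mvk then had a log2 fold change of -0.09 in place of -0.54, and Hsd17b7 0.20 in place of 0.71. The scores were added after the values were seen. They were computed from the expression values of these same libraries and differ between the sexes. Adding them can therefore take up a sex difference of any origin, and the part of length and GC in these values was not tested.

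**Figure D5:**
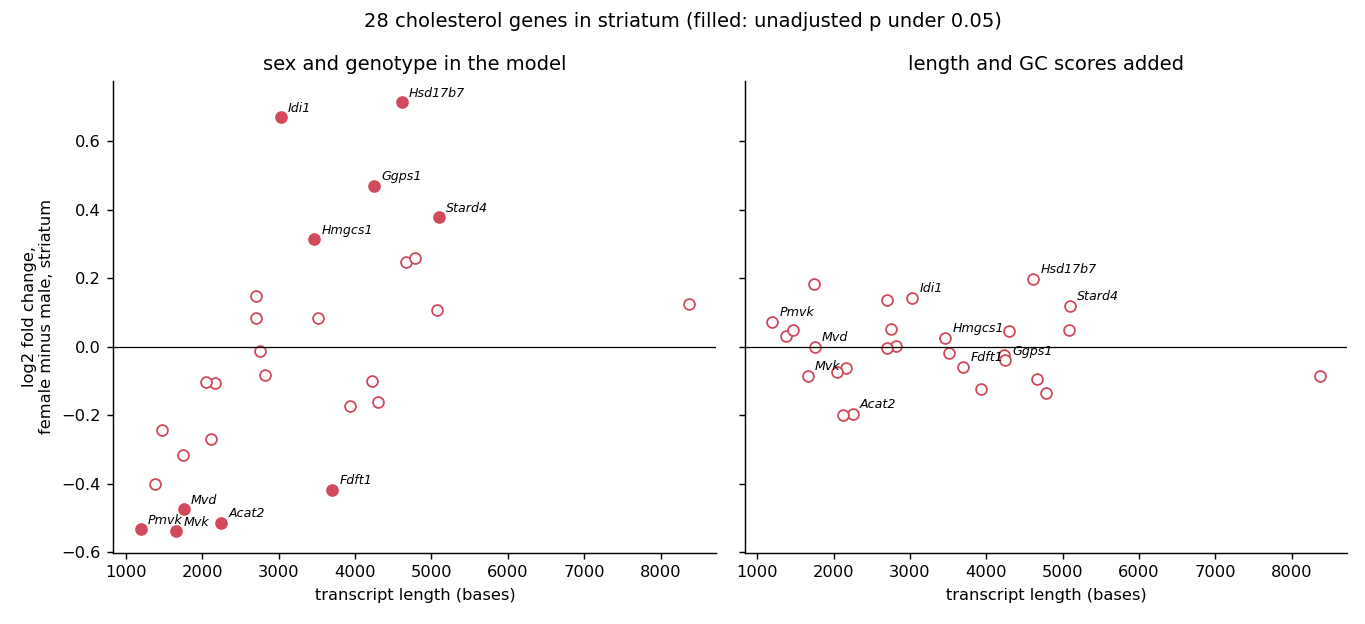
Log2 fold change, female minus male, in striatum against transcript length for the 28 genes, without (left) and with (right) the length and GC scores in the model, with unadjusted p under 0.05 filled. On the left the 5 filled points above 0 lie at 3027 bases or more and the 5 below 0 at 3698 or less, and on the right no point is filled.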

How the data were processed

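The 48 libraries hold messenger RNA prepared with a stranded kit (per the labels). Values are raw gene counts in 1 table, as the authors deposited it. STAR 2.4.2a is the aligner among the tools in the submitters' processing notes, beside FastQC 0.10.1, SAMtools and Picard. Those notes list the builds GRCm38 and mm8 without a role. Which tool counted the reads, with which annotation and strand setting, is not given in the sources used here. All 92 ERCC spike-in rows (0.0614% to 1.09% of a library) were left out. Symbols, positions and lengths came from GENCODE vM21 on GRCm38 by Ensembl identifier; 581 identifiers (0.106% of counts) had no match.

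edgeR 4.0.16 in R 4.3.3 (quasi-likelihood, robust, TMM, filterByExpr, Benjamini-Hochberg over all genes tested) was run per tissue with sex and genotype, over the wild-type libraries for regions, and over all 48 for the tissue interaction; DESeq2 1.42.0 was an alternative. SEs are the absolute log2 fold change over the square root of F; log2 CPM has a prior count of 2. Tests were 2-sided, and the fit was tested on simulated data. Within a tissue each animal gave 1 library, so p-values measure the spread between animals together with that of dissection and library preparation. The main fits for regions and for the tissue interaction had no animal term and treat the libraries of 1 animal as independent. Intervals cover the spread between libraries only.

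Libraries of 1 animal share its number in the labels, so the number pairs them across tissues: median correlations of their deviations were 0.376, 0.446 and 0.306 for striatum and cortex, cerebellum and cortex, and cerebellum and striatum, against -0.133, -0.097 and -0.103 between animals. Members and lists were chosen with earlier results of these data known. Full values are given for the 5 members of smallest p per genotype comparison, called members per region, up to 4 of smallest p for interaction and sex, the 2 highest per length in each role, and up to 2 called genes per list and direction.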

Additional observations from a re-analysis of the deposited data

Results flagged for a closer look

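Of 168 member and group combinations of 8 libraries each, 16 held a value that stood apart, by a gap to its nearest neighbour, as a share of the group's range, above Dixon's 95% critical value. Chance alone marks about 1 in 20 groups. In cerebellum of deletion animals, 9 of the 16 came from animal D809. Its values were 76.3 CPM for Acat2, 4.10 for Fdps, 177.7 for Fdft1, 88.6 for Sqle, 125.2 for Cyp51, 132.5 for Msmo1, 38.5 for Nsdhl, 60.8 for Dhcr7 and 97.1 for Cyp46a1. The other 7 deletion libraries reached at most 46.3, 2.45, 94.9, 62.1, 80.1, 77.8, 27.4, 38.2 and 72.1 for these genes. The same library had the lowest cerebellar markers, 5.77 mean log2 CPM, and the highest oligodendrocyte markers, 8.80, and their part in these values was not tested.

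The other 7 were single. In wild-type cerebellum, Hsd17b7 was 20.6 CPM in animal W805 and Srebf1 103.0 in W813. The W813 cerebellum library had choroid markers of 7.27, cerebellar markers of 7.39 and oligodendrocyte markers of 8.61 mean log2 CPM. Their part in the Srebf1 value was not tested. In wild-type striatum, Dhcr7 was 58.1 in W805 and Scap 100.7 in W814, below the others. Scap was also 125.3 in deletion striatum of D801 and 124.9 in wild-type cortex of W808. Stard4 was 41.2 in wild-type cortex of W816.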

How the results depend on the processing

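Between genotypes, 0 of 28 members were called under the 9 and 11 alternatives in cerebellum and striatum and under 10 in cortex, and the interactions gave 0 as well. Another in cortex, without the 11 libraries of high striatal markers, leaves 1 deletion library against 4 and called 0% of all genes, so its 0 says nothing of stability. Under the other alternatives the share of all genes called ran from 0.0118% to 0.184% in cortex. It ran from 0.00577% to 0.244% in striatum and from 0.00596% to 0.192% in cerebellum. The lowest share in each tissue was that of a fit to 1 sex alone, and a 0 there says little of stability. The count of members at an unadjusted p under 0.05 ran from 0 to 5 in cortex, 0 to 3 in striatum and 0 to 2 in cerebellum. The highest counts came with the length and GC scores in cortex and striatum and with all 48 libraries in 1 fit in cerebellum. Shares of all genes at that p under these settings are not given here. The median log2 fold change of the members in cortex was 0.02 in females alone and 0.12, with 22 positive, without the 4 libraries of lowest striatal markers. In striatum it was 0.07 with marker levels as covariates, and in cerebellum 0.16 in females alone and 0.04 without the 2 libraries of lowest cerebellar markers; the cause was not tested. In female against male striatum DESeq2 called 5 members where edgeR called 0; the cause was not tested. RLE scaling and the count filter changed no count of called members.

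No paired analysis was possible for the genotype comparisons because the genotypes share no animal number. With the animal as a replicate block, the region comparisons called 2, 9 and 7 members in place of 2, 8 and 6 (striatum against cortex, cerebellum against cortex, cerebellum against striatum). The added calls were Idi1, at a log2 fold change of 0.60 against cortex, and Msmo1, -0.59 against striatum. In the genotype by tissue tests the block called 0, and it changed no other call. In deletion animals the counts were 2, 6 and 5. Without libraries of high thalamic or highest choroid markers, cerebellum against striatum called 7, with Msmo1 at -0.61. That omission, the length and GC scores, and the omissions of the 2 cerebellum and the 4 cortex libraries were chosen after seeing the data. Fdps and Idi1 have few counts and are less certain, and why their counts are low was not tested. With 8 animals a group, the 95% intervals of 21 to 26 members per tissue exclude a 1.5-fold genotype difference.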
